A study of Mus musculus with 23 samples.

Results

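The comparison described here is that of normal colon from mice colonized for 2 weeks with BF BSHhigh against normal colon from mice colonized for 2 weeks with BF BSHlow. Its members were the libraries whose labels give normal colon and 2 weeks, which came to 8 of the 23 RNA-seq libraries of the series, with 4 in each group. Every mouse was a male Cdx2Apcf/w animal on the C57BL/6 background that began a 60% high-fat diet at 6 to 8 weeks of age. In this genotype a Cre transgene under the Cdx2 promoter acts on 1 floxed copy of Apc while the other copy stays wild type, so both groups carried the Apc lesion and no library came from a mouse with intact Apc or without bacteria. BF BSHlow was Bacteroides fragilis strain 638R with an empty vector, and BF BSHhigh was the same strain carrying a bsh gene taken from a different B. fragilis isolate. The labels give 2 colonizations per week, whereas the methods of the study describe gavage every 3 days after an antibiotic course. The labels number the libraries without naming the animal behind each, so the p-values measure the spread between these libraries. The labels also do not say which stretch of the colon was taken.

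Bile salt hydrolase (BSH) is the bacterial enzyme that removes the glycine or taurine from conjugated bile acids in the gut lumen. The unconjugated acids that result are less well taken up by the ileal transporter and are read in the gut wall by the nuclear receptors FXR (Nr1h4) and VDR and by the surface receptor TGR5 (Gpbar1). The colon epithelium renews itself from WNT-driven crypts, and it carries a basal level of interferon-stimulated and antigen-presenting genes that responds to microbes and to lymphocytes. The comparison asks which of these programs differed in normal colon at the early time point.

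Total expected counts lay between 12401388 and 15607513 in the BSHlow libraries and between 14816679 and 15898917 in the BSHhigh libraries, and 13752 of 55450 genes passed the filter on low counts. Mitochondrial transcripts made up 7.30% to 15.1% of the counts in BSHlow and 8.53% to 15.9% in BSHhigh. The labelled tissue was checked against intestinal genes, which were at high level in all 8 libraries, with Cdx2 between 256 and 346 CPM (counts scaled to the size of each library) and Vil1, which encodes the brush border protein villin, between 604 and 963 CPM. These 2 genes check for intestine and do not tell its parts from each other.

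1 gene passed the threshold of an adjusted p of 0.05 in the upward direction (0.00727% of the genes tested) and 0 passed it in the downward direction (0%). At an unadjusted p under 0.05 there were 527 genes with higher levels in BSHhigh (3.83%) and 408 with lower levels (2.97%), or 935 in either direction (6.8%). The groups of 4 did not overlap for 262 higher genes (1.91%) and 249 lower genes (1.81%). These shares are the background for the counts of list members given below. That background moved when 1 library was left out. Higher genes at an unadjusted p under 0.05 then ran from 383 of 14041 tested (without BSHhigh 1) to 635 of 13936 (without BSHhigh 3). Lower genes ran from 264 of 13996 (without BSHhigh 4) to 668 of 14000 (without BSHlow 2). DESeq2, run on the same 13752 genes, called 43 higher and 10 lower. It gave no adjusted p for 1081 of them, which therefore could not be called. Over all genes tested the median of the log2 fold change was -0.002, and 49.5% of genes lay above 0, a balance that the scaling between libraries itself favours.

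The gene that rose was St3gal4, which encodes a sialyltransferase that caps galactose residues of glycoproteins and glycolipids with sialic acid (chromosome 9, 35046576 to 35119268, minus strand, GRCm38). Its level was 207, 264, 215 and 228 CPM in BSHlow 1 to 4 and 546, 456, 465 and 511 CPM in BSHhigh 1 to 4. The lowest BSHhigh library thus stood well above the highest BSHlow library. The group means were 229 ± 25.2 CPM and 495 ± 41.7 CPM (SD, n = 4 each), a 2.16-fold difference. The log2 fold change was 1.11 ± 0.11 (SE), with an adjusted p of 0.0251 by edgeR's quasi-likelihood test. The fold change stayed between 1.04 and 1.18 on the log2 scale in every alternative, but the adjusted p moved above the threshold, to between 0.0696 and 0.166, without any of BSHlow 1, BSHlow 3 or the 4 BSHhigh libraries. It was 0.26 in the fit of all 16 libraries of both time points. A non-coding gene, 4930581F22Rik, overlaps the St3gal4 locus. Of 13 sialyltransferase genes tested, a list chosen after the values were seen, 8 were above 0 and 5 below. At an unadjusted p under 0.05, 2 were higher and 1 lower. That St3gal4 alone of the list passed the adjusted threshold follows from its being the only gene called. St3gal5, which makes the ganglioside GM3, went the other way without passing, at 18.1, 20.8, 50.9 and 5.63 CPM in BSHlow and 2.51, 9.02, 1.36 and 2.45 CPM in BSHhigh (log2 fold change -2.61, adjusted p = 0.607).

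The genes next in rank were led by interferon-stimulated genes, which cells turn on when an interferon binds its receptor. None of them passed the adjusted threshold. Irf7, the transcription factor that amplifies type I interferon responses, was at 197, 139, 162 and 227 CPM against 339, 543, 331 and 371 CPM. Its log2 fold change was 1.13 ± 0.20 (adjusted p = 0.319), and its groups did not overlap. Oas1g, a sensor of double-stranded RNA, was at 30.2, 19.1, 24.8 and 40.6 CPM against 77.2, 79.6, 61.5 and 52.7 CPM (log2 fold change 1.24 ± 0.22, adjusted p = 0.319). Oas1g shares reads with near-identical paralogs, and its deposited counts were not whole numbers in any of the 8 libraries. Also without overlap were Ifi27 (0.82 on the log2 scale), its relative Ifi27l2b (1.18), and Parp12, an antiviral ADP-ribosyltransferase gene (0.78). DESeq2 called Irf7, Oas1g, Ifi27, Ifi27l2b and Parp12, with adjusted p between 9.54e-06 and 0.00153.

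All 36 type I interferon-stimulated genes of the list had a log2 fold change above 0, with a median of 1.11 against -0.002 for all genes tested. Of these, 18 were at an unadjusted p under 0.05, all higher, against 3.83% of all genes tested. The groups did not overlap for 5, against 1.91% of all genes tested, among them Irf7, Oas1g, Ifi27l2b and Ifit1bl1. The mean log2 difference of the list from the BSHlow mean, called its score here, was -0.26, -0.54, -0.45 and 1.25 in BSHlow 1 to 4 and 1.02, 1.87, 1.31 and 0.91 in BSHhigh 1 to 4. BSHlow 4 therefore lay inside the BSHhigh range while the other 3 BSHlow libraries lay far below it. Isg15, a ubiquitin-like modifier, shows the pattern, with 5.12, 5.97, 5.46 and 39.2 CPM in BSHlow and 34.2, 71.9, 60.7 and 26.1 CPM in BSHhigh. Oasl2, another antiviral gene, was at 33.4, 22.5, 29.7 and 159 CPM against 130, 270.3, 177 and 118 CPM. Their log2 fold changes were 1.77 ± 0.65 and 1.504 ± 0.58, and both had an adjusted p of 0.711.

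The count at an unadjusted p under 0.05 depended on which library was left out. It was 33 of the list without BSHlow 4, 9 without BSHlow 3, and 8 without BSHlow 1, BSHlow 2 or BSHhigh 2. Over all genes tested the higher count was 480 without BSHlow 4 and 428 without BSHlow 3 or BSHhigh 2. It was 516 without BSHlow 1 and 589 without BSHlow 2, against 527 with all 8 libraries. Without BSHlow 4, 15 members passed the adjusted threshold over all genes, among them Isg15 (log2 fold change 3.13, adjusted p = 0.023), Usp18, which removes the Isg15 protein from its targets (3.54, adjusted p = 0.0256), and Oasl2 (2.61, adjusted p = 0.023). In that fit 40 genes in all were called higher and 3 lower. The median of the list stayed above 0 in every alternative, between 0.78 and 1.58.

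**Figure D1:**
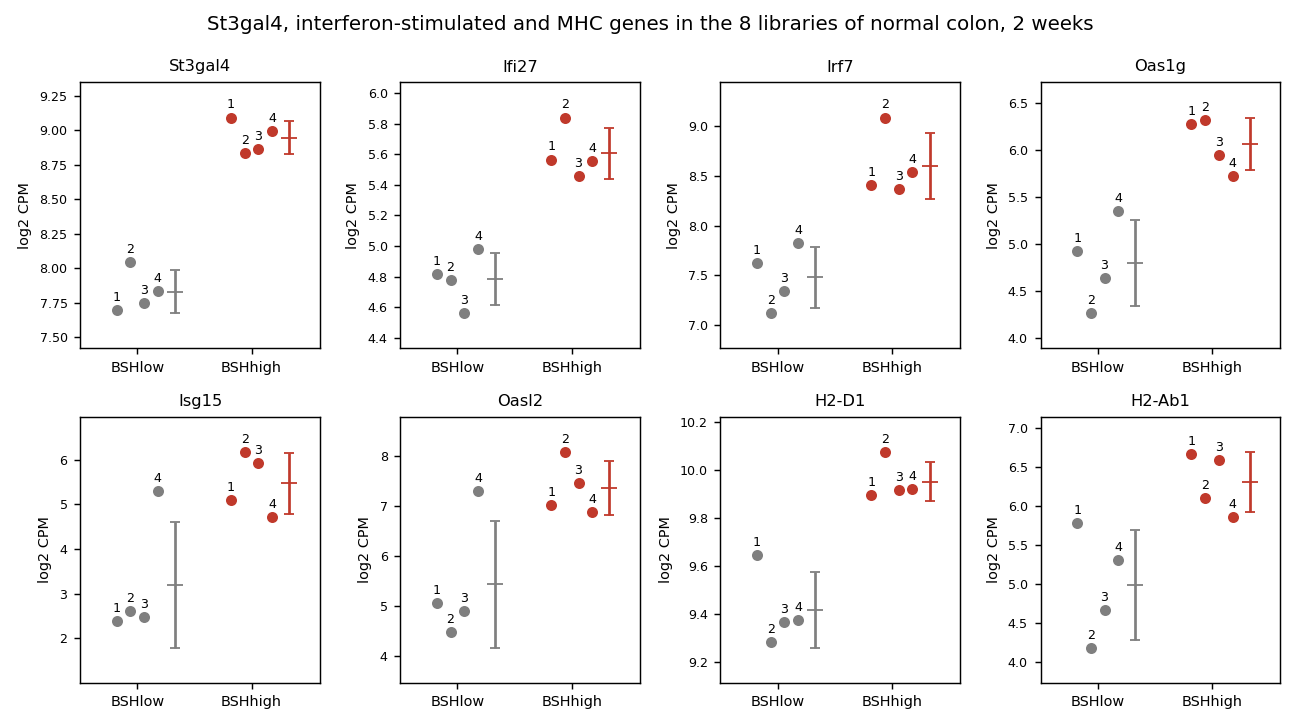
Level of St3gal4, 5 interferon-related genes and 2 MHC genes in each library, as log2 CPM, with BSHlow in grey, BSHhigh in red and the replicate number beside each point. Bars give the mean and SD of 4 libraries. St3gal4, Ifi27, Irf7, Oas1g, H2-D1 and H2-Ab1 do not overlap between groups, while BSHlow 4 lies among the BSHhigh libraries for Isg15 and Oasl2.

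Upstream of these targets, the interferon genes themselves were at or near 0. Of 11 interferon ligand genes, a list chosen after the values were seen, 9 had 0 counts in all 8 libraries, Ifnb1 included, which allows at most 3 counts per library at this depth. Ifng, which encodes interferon gamma, had 0, 0, 0 and 6 counts in BSHlow and 5, 3, 1 and 4 counts in BSHhigh. The single BSHlow library with Ifng counts was BSHlow 4. These counts lie near 0, and a link between them and the list scores was not tested. Among 16 receptor and transducer genes, 14 were above 0 on the log2 scale with a median of 0.13, and the one furthest from 0 was Irf7, itself a target. The receptor gene Ifnar1 was at 0.07 (adjusted p = 0.926), the kinase gene Jak1 at 0.04 (adjusted p = 0.966), and Irf3, the factor that starts interferon transcription, at -0.07 (adjusted p = 0.944). Ifngr1, a subunit of the interferon gamma receptor, was at 0.27 (adjusted p = 0.711).

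Interferon targets share a promoter element, the interferon-stimulated response element, whose core holds repeated GAAA. The motif GAAANNGAAA, searched on both strands in the 250 bases before each start site of the RefSeq promoter table (GRCm38.p6), was found in 2.98% of all 32851 promoters and, per gene, in 3.30% of the 10361 tested genes that had an entry. Of the 36 listed type I interferon-stimulated genes, 25 had an entry and 13 of these (52.0%) held the motif. The 4 printed here were taken from those that held it and had an unadjusted p under 0.05, and are printed to show the element as it stands in listed genes that hold it. Capitals mark every match, and overlapping matches run together. The regions are chr4:156200819-156201068 for Isg15, chr5:120887614-120887863 for Oas1g, chr8:71537473-71537722 for Bst2, all on the minus strand, and chr19:34640639-34640888 for Ifit1 on the plus strand.
Isg15: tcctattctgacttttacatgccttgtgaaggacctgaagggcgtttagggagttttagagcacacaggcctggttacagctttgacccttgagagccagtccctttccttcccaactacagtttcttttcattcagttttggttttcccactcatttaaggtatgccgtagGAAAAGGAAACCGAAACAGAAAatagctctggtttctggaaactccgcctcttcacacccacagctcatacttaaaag
Oas1g: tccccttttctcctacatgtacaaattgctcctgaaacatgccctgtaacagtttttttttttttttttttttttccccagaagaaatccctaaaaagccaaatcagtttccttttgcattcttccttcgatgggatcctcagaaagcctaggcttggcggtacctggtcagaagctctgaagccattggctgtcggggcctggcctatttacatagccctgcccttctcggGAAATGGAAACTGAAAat
Bst2: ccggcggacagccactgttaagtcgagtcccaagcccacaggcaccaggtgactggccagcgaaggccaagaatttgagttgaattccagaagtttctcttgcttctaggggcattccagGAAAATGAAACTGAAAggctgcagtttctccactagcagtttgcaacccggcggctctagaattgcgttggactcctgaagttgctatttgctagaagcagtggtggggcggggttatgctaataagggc
Ifit1: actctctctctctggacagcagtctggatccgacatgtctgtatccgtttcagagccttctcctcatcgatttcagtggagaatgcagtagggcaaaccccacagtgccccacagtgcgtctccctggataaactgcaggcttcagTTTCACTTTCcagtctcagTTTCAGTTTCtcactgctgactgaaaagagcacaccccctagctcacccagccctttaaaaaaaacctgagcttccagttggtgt
Isg15 held 3 overlapping matches that begin 78, 72 and 66 bases before the start, and Oas1g held 2 that begin 18 and 12 bases before it. Bst2, which encodes the virus-tethering protein tetherin, held 2, and Ifit1, an inhibitor of translation of viral RNA, held 2 on the opposite strand. No match was found in these windows for Irf7, Oasl2 or Ifih1, which says only that these letters are not in the window.

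Genes inducible by interferon gamma, the interferon of T and NK cells, were next. All 24 members tested were above 0 with a median of 1.01, and 15 had an unadjusted p under 0.05, against 3.83% of all genes tested. Its scores were 0.17, -0.63, -0.48 and 0.95 in BSHlow and 1.03, 1.41, 1.03 and 1.16 in BSHhigh, so that the groups just missed each other. Gbp2, a guanylate-binding protein gene of cell-autonomous defence, was at 10.2, 6.25, 9.50 and 22.3 CPM against 33.7, 25.4, 50.4 and 32.3 CPM (log2 fold change 1.54 ± 0.35, adjusted p = 0.581). Ido1, the tryptophan-degrading enzyme gene, was at 17.6, 12.1, 10.1 and 14.1 CPM against 27.6, 19.5, 17.9 and 37.7 CPM (0.93 ± 0.25, adjusted p = 0.607). Cxcl10, a chemokine that attracts activated T cells, was low throughout, at 0.38, 0.70, 0.24 and 2.29 CPM against 2.05, 4.39, 3.71 and 3.58 CPM. The number of members at an unadjusted p under 0.05 fell to 7 without BSHhigh 2, to 8 without BSHlow 2 and to 9 without BSHlow 1 or BSHlow 3.

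The genes of MHC class I antigen presentation, which load peptides for CD8 T cells, gave the most even separation. Of 24 members, 23 were above 0 with a median of 0.54. At an unadjusted p under 0.05, 18 were higher, against 3.83% of all genes tested. The groups did not overlap for 15, all higher, against 1.91% of all genes tested. Scores were 0.22, -0.19, -0.26 and 0.23 in BSHlow and 0.50, 0.80, 0.47 and 0.63 in BSHhigh. Leaving out any 1 library kept the number at an unadjusted p under 0.05 between 16 and 19. H2-D1, a classical class I heavy chain, was at 801, 623, 660.4 and 664 CPM in BSHlow and at 952, 1077, 966 and 969 CPM in BSHhigh (log2 fold change 0.53 ± 0.12, adjusted p = 0.55). H2-K1, the other classical heavy chain, had a log2 fold change of 0.58, and B2m, the shared light chain, one of 0.80. Tapbpl, a peptide editor, was at 57.4, 45.5, 44.7 and 43.1 CPM against 70.9, 69.9, 65.7 and 76.3 CPM (0.57 ± 0.11, adjusted p = 0.34). The immunoproteasome subunit gene Psmb8 was at 45.0, 21.9, 18.1 and 40.2 CPM against 63.9, 84.4, 49.8 and 62.3 CPM. DESeq2 called 10 members and edgeR 0. The counts of H2-D1, H2-K1, H2-Q4 and H2-T23 were not whole numbers in any library, as reads of the class I family are divided among close copies.

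MHC class II genes are used by dendritic cells, B cells and interferon-exposed epithelium to show peptides to CD4 T cells. They were above 0 in 10 of 11 members with a median of 1.20. At an unadjusted p under 0.05, 9 were higher, against 3.83% of all genes tested. H2-Ab1 was at 54.9, 18.1, 25.3 and 39.6 CPM in BSHlow and at 101, 68.5, 95.9 and 58.2 CPM in BSHhigh, apart by a small margin (log2 fold change 1.23 ± 0.31, adjusted p = 0.605). H2-Aa followed with 45.5, 15.5, 27.3 and 42.4 CPM against 131, 67.0, 94.3 and 49.9 CPM. For both genes BSHlow 2 was the lowest library.

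**Figure D2:**
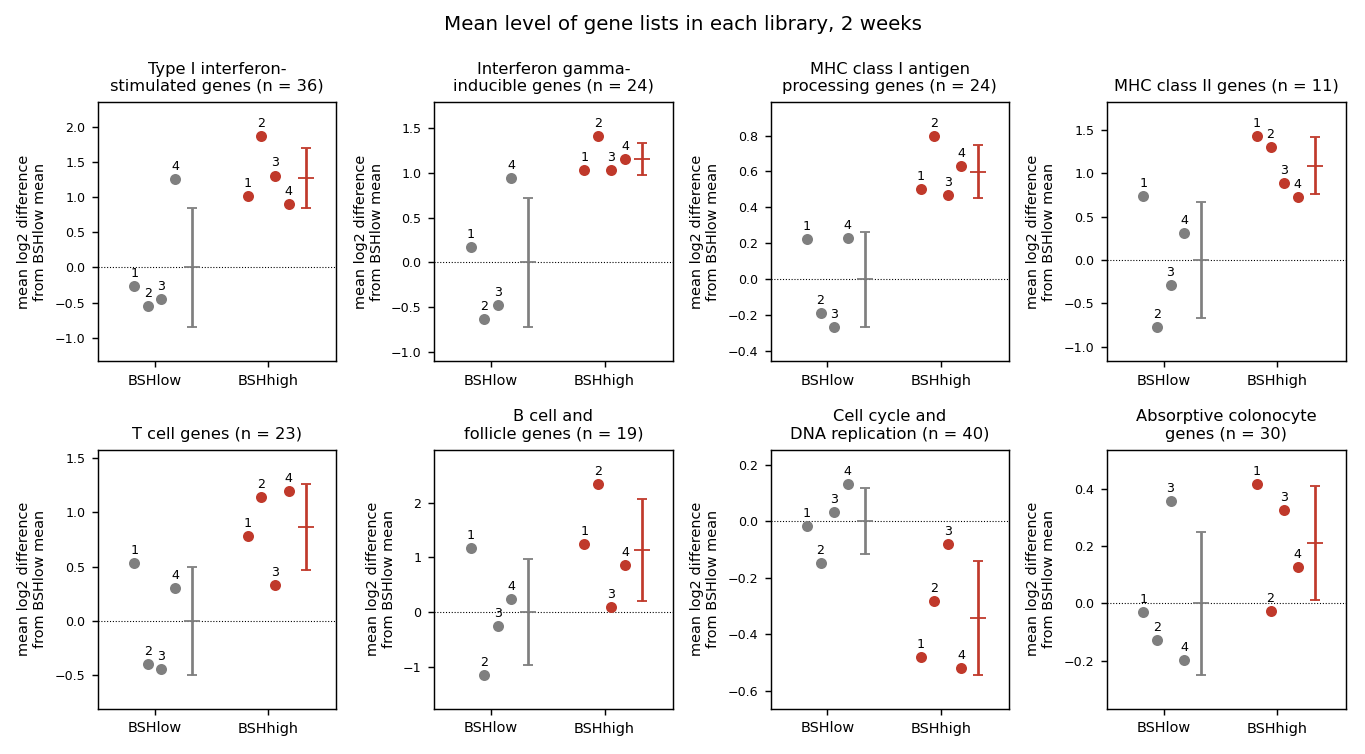
Score of 8 gene lists in each library, that is the mean over the tested members of log2 CPM minus the BSHlow mean, with the number of members in each title. Points carry replicate numbers and bars give mean and SD of 4 libraries. BSHlow 4 sits at 1.25 for type I interferon-stimulated genes, the MHC class I groups are apart, and the cell cycle scores of BSHhigh run from -0.52 to -0.08.

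Lymphocyte genes lay on the same side of 0 as the antigen-presentation genes. T cell genes were above 0 in 22 of 23 members with a median of 0.83. At an unadjusted p under 0.05, 11 were higher, against 3.83% of all genes tested. Cd3d, a chain of the T cell receptor complex, was at 2.34, 1.19, 1.35 and 1.99 CPM against 3.88, 4.51, 2.10 and 5.17 CPM (log2 fold change 1.18 ± 0.33, adjusted p = 0.607), with BSHhigh 3 inside the BSHlow range. All 16 cytotoxic and intraepithelial lymphocyte genes were above 0 with a median of 0.73. Of these, 3 had an unadjusted p under 0.05, against 3.83% of all genes tested. Ccl5, a chemokine of cytotoxic cells, was at 12.5, 4.70, 3.72 and 8.91 CPM against 20.7, 16.04, 11.1 and 33.95 CPM. All 19 B cell and follicle genes were above 0 with a median of 1.23 (0.67 without BSHhigh 2 and 1.88 without BSHlow 1). Of these, 6 had an unadjusted p under 0.05, against 3.83% of all genes tested. Ms4a1, which encodes the B cell antigen CD20, was at 2.21, 0.21, 0.32 and 0.70 CPM against 4.79, 9.999, 0.62 and 3.91 CPM. The summed level of the B cell list was 29.7 to 81.0 CPM in BSHlow and 60.1 to 177 CPM in BSHhigh, and that of the T cell list 118 to 157 CPM and 145 to 233 CPM, so both overlapped. In bulk tissue more cells of a type and more RNA per cell cannot be told apart, and the part of lymphocyte content in the MHC and interferon values was not tested. The B cell count at an unadjusted p under 0.05 ran from 1 without BSHhigh 2 to 13 without BSHlow 1, and it was 2 without BSHlow 2 or BSHlow 4, 3 without BSHlow 3 and 12 without BSHhigh 3. The T cell count ran from 4 without BSHhigh 4 to 14 without BSHhigh 3, and it was 7 without BSHlow 2, BSHlow 3 or BSHhigh 2. The cytotoxic count was 1 without BSHhigh 4, 6 without BSHlow 1 and 7 without BSHhigh 3. Over all genes tested the higher count also moved, from 527 with all 8 libraries to 428 without BSHhigh 2 and 421 without BSHhigh 4. It was 516 without BSHlow 1 and 635 without BSHhigh 3.

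Regulatory T cell and mucosal homing genes were above 0 in 10 of the 11 members tested, of 24 listed, with a median of 0.49. At an unadjusted p under 0.05 there was 1 higher, the gut-homing integrin gene Itgb7 (log2 fold change 0.71, adjusted p = 0.711), and 1 lower without overlap, Ikzf2, which encodes the transcription factor Helios (-0.91, adjusted p = 0.607). Over all genes tested the shares at that p were 3.83% higher and 2.97% lower. Ikzf2 was at 20.8, 23.4, 33.3 and 22.4 CPM against 15.7, 13.7, 7.23 and 16.5 CPM, levels far above those of Foxp3. Which cells its transcripts came from was not tested. Foxp3, the lineage factor of regulatory T cells, had 3 counts in BSHlow and 11 in BSHhigh summed over 4 libraries each, and Il2ra, Ctla4, Icos and Tigit also stayed below the filter, with sums of 11 to 24 counts. Ccl28, a mucosal chemokine gene, was at 58.6, 65.7, 58.8 and 68.0 CPM against 65.3, 56.5, 85.3 and 66.0 CPM, an overlap with a log2 fold change of 0.12 ± 0.13 (adjusted p = 0.912). Macrophage and monocyte genes were above 0 in 16 of 20 members with a median of 0.23. At an unadjusted p under 0.05, 4 were higher, against 3.83% of all genes tested. Plasma cell and IgA transport genes were above 0 in 12 of 17 with a median of 0.28. Nos2, the inducible nitric oxide synthase gene, was low but higher in every BSHhigh library, at 0.63, 0.49, 1.43 and 0.64 CPM against 1.597, 3.72, 4.69 and 2.12 CPM (log2 fold change 1.94 ± 0.45, adjusted p = 0.581). Tnfaip3, an inhibitor of NF-kB signalling, was at 30.6, 34.6, 37.2 and 37.7 CPM against 58.9, 45.1, 64.7 and 46.4 CPM (0.62 ± 0.13, adjusted p = 0.512).

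Ly6g is the usual surface marker of neutrophils, and it was higher in each BSHhigh library, at 0.76, 1.19, 1.90 and 4.81 CPM in BSHlow and 57.3, 6.34, 28.0 and 23.9 CPM in BSHhigh (log2 fold change 3.70 ± 0.69, adjusted p = 0.34). The other 21 neutrophil genes and chemokines of the list did not follow it. Together they held 56, 20, 19 and 34 counts in BSHlow and 36, 50, 46 and 16 counts in BSHhigh, against 12 to 82 and 104 to 754 counts of Ly6g alone. The granule genes Mpo and Ngp had 0 counts in all 8 libraries, and S100a8, a major cytosolic protein gene of neutrophils, had 0 to 5 counts per library.

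Small shifts in the other direction were found across cell cycle and DNA replication genes. Of 40 members, 39 were below 0 with a median of -0.43. At an unadjusted p under 0.05, 18 were lower, against 2.97% of all genes tested, while none passed the adjusted threshold. Scores were -0.02, -0.15, 0.03 and 0.13 in BSHlow and -0.48, -0.28, -0.08 and -0.52 in BSHhigh, with BSHhigh 3 inside the BSHlow range. Mki67, which encodes the proliferation marker Ki-67, was at 122, 85.8, 140 and 159 CPM against 80.4, 102, 95.7 and 68.1 CPM (log2 fold change -0.55 ± 0.19, adjusted p = 0.693), and the groups overlapped. Ccna2, the cyclin of S phase and G2, was at 59.4, 47.8, 66.7 and 60.1 CPM against 32.0, 41.5, 51.3 and 30.4 CPM (-0.59 ± 0.17, adjusted p = 0.611). Rrm2, the ribonucleotide reductase subunit that supplies deoxynucleotides, was the 1 member without overlap, at 13.7, 16.6, 26.9 and 16.6 CPM against 11.4, 9.999, 13.4 and 10.01 CPM. Rrm2 was also the lowest member, at -0.72 on the log2 scale. The mitotic kinase genes Plk1 and Aurkb, the topoisomerase gene Top2a and the cyclin gene Ccnb1 lay between -0.64 and -0.53. The replication licensing genes Mcm2 to Mcm7 lay between -0.32 and -0.15 and none had an unadjusted p under 0.05. Ccne2, a cyclin of the start of S phase, was the 1 member above 0, at 0.28 (adjusted p = 0.887). The count at an unadjusted p under 0.05 was 6 without BSHhigh 1, 7 without BSHhigh 4, 8 without BSHlow 4, 9 without BSHlow 1, 11 without BSHlow 3 and 23 without BSHhigh 3. Over all genes tested the lower count moved as well, from 408 with all 8 libraries to 302 without BSHhigh 1 and 264 without BSHhigh 4. It was 284 without BSHlow 4, 411 without BSHlow 1, 297 without BSHlow 3 and 605 without BSHhigh 3. The median of the list stayed below 0 in the 14 alternatives in which it was computed, between -0.49 and -0.28, the latter without BSHlow 4.

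**Figure D3:**
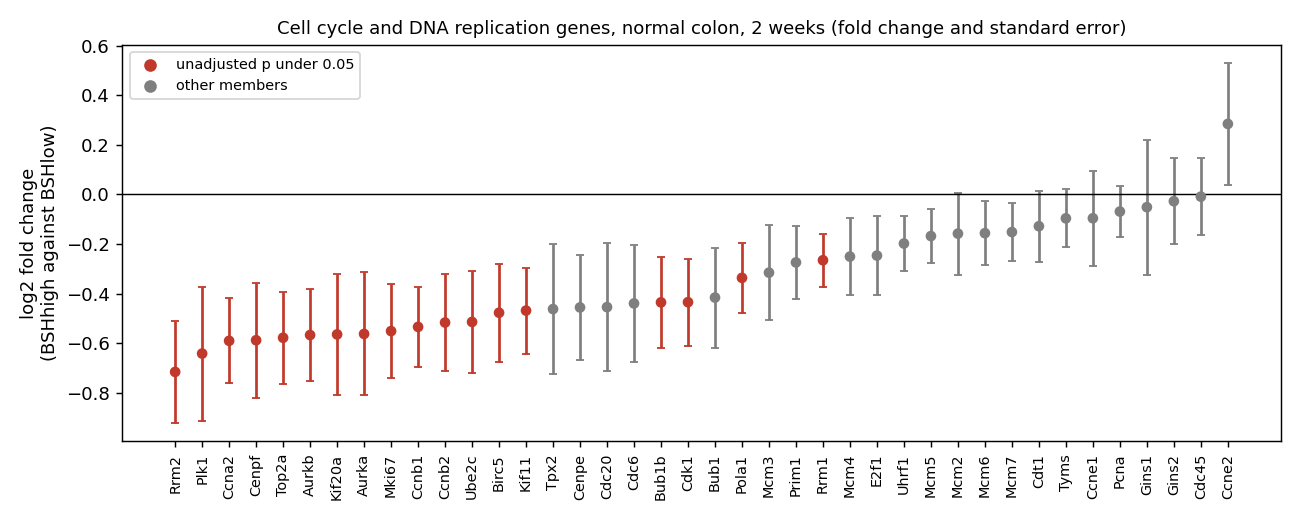
Log2 fold change of BSHhigh against BSHlow for the 40 cell cycle and DNA replication genes, ordered by value, with standard errors from edgeR. Red marks the 18 members at an unadjusted p under 0.05. All but Ccne2 lie below 0, and Rrm2 lies lowest, at -0.72.

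Of the 12 named genes with the smallest p in the downward direction none belongs to that list. Pclaf, a PCNA-binding factor gene, was at 28.2, 28.6, 32.3 and 31.8 CPM against 18.02, 21.4, 22.1 and 19.5 CPM, apart between groups (log2 fold change -0.58 ± 0.10, adjusted p = 0.319). Kif14, a cytokinesis motor gene, was at 5.44, 5.19, 6.97 and 7.79 CPM against 2.51, 3.17, 3.34 and 2.59 CPM (-1.13 ± 0.20, adjusted p = 0.323). Fanci, a DNA crosslink repair gene, was at -0.84 and Suv39h1, a histone methyltransferase gene, at -0.50 on the log2 scale. Cwh43, a gene of lipid remodelling of GPI anchors, was at 33.01, 40.9, 39.9 and 39.7 CPM against 24.9, 21.9, 27.2 and 23.7 CPM (-0.65 ± 0.10, adjusted p = 0.234). Ribosome biogenesis genes were below 0 in 24 of 30 members with a median of -0.13 (-0.05 without BSHlow 4 and -0.08 without BSHhigh 1), and cytosolic ribosomal protein genes in 31 of 51 with a median of -0.01.

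WNT target genes were below 0 in 15 of 22 members with a median of -0.15 (-0.23 without BSHhigh 3 and -0.07 without BSHhigh 4). At an unadjusted p under 0.05, 2 were lower, against 2.97% of all genes tested. The other 7 members were above 0, and the 1 member without overlap between groups was higher. Cd44, an adhesion receptor gene of crypt cells, was at 73.9, 68.8, 56.6 and 82.2 CPM in BSHlow and 44.4, 45.3, 61.5 and 36.7 CPM in BSHhigh (log2 fold change -0.58 ± 0.16, adjusted p = 0.607). Axin2, a feedback inhibitor of the pathway, was at 18.6, 18.9, 22.3 and 25.96 CPM against 16.3, 18.8, 18.8 and 13.5 CPM (-0.35 ± 0.15, adjusted p = 0.725). The stem cell marker gene Lgr5 was at -0.32 (adjusted p = 0.813), Myc at -0.07 (adjusted p = 0.959) and Ccnd1 at -0.15 (adjusted p = 0.913). The count at an unadjusted p under 0.05 was 6 without BSHhigh 3 and 4 without BSHhigh 2, and 1 without BSHlow 4, BSHhigh 1 or BSHhigh 4. Over all genes tested the lower count was 605 without BSHhigh 3 and 373 without BSHhigh 2. It was 284 without BSHlow 4, 302 without BSHhigh 1 and 264 without BSHhigh 4. The floxed gene Apc was at 108, 58.5, 89.4 and 114 CPM against 95.8, 65.4, 56.1 and 78.7 CPM, overlapping (adjusted p = 0.849). This whole-gene count does not separate the floxed from the wild-type copy. Ctnnb1, which encodes beta-catenin, lay at -0.01 (adjusted p = 0.996).

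Among differentiated epithelial cells, absorptive colonocyte genes were above 0 in 21 of 30 members with a median of 0.16. The median was 0.07 without BSHhigh 1, 0.09 without BSHlow 2 and 0.25 without BSHlow 3. At an unadjusted p under 0.05, 8 were higher, against 3.83% of all genes tested. That count lay between 7 and 10 when any 1 library was left out. Scores were -0.03, -0.13, 0.36 and -0.20 in BSHlow and 0.42, -0.03, 0.33 and 0.13 in BSHhigh, so the groups overlapped. They were highest in BSHhigh 1, BSHlow 3 and BSHhigh 3. Car4, the surface carbonic anhydrase gene of mature colonocytes, was at 489, 345, 386 and 348 CPM in BSHlow and 1067, 602, 848 and 651 CPM in BSHhigh, apart between groups (log2 fold change 1.01 ± 0.20, adjusted p = 0.34). Saa1, a serum amyloid gene that epithelium makes in response to microbes, was at 1518, 1105, 789.6 and 729 CPM against 2506, 2165, 2024 and 1559 CPM (0.99 ± 0.24, adjusted p = 0.581). Slc9a3, the apical sodium-proton exchanger gene, was at 275, 98.7, 166 and 141 CPM against 382, 319, 336 and 298 CPM. Slc13a2, the citrate and succinate carrier gene, had a log2 fold change of 0.48 without overlap, and Lypd8, whose product keeps flagellated bacteria off the epithelium, also did not overlap. The deposited counts of Saa1 were not whole numbers in any library. Goblet cell genes were below 0 in 14 of 20 members with a median of -0.05, and 0 had an unadjusted p under 0.05 by edgeR. Without BSHhigh 3 there were 4 lower members and the median was -0.18, without BSHlow 1 there were 2 higher, and without BSHhigh 2 the median was 0.02. The enteroendocrine list had a median of 0.07 and the tuft cell list one of 0.06.

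The bile acid list, chosen for the substrate of the enzyme, held 24 genes of which 18 were tested. Of these 13 were above 0 with a median of 0.22 (0.12 without BSHlow 3). While 3.83% of all genes tested were higher at an unadjusted p under 0.05, 1 of the 18 was. That was Abcg5, a sterol efflux transporter gene, at 1.45, 2.25, 0.71 and 0.996 CPM against 4.33, 1.52, 2.90 and 3.98 CPM (log2 fold change 1.22 ± 0.42, adjusted p = 0.683). Without BSHhigh 3 the list had 4 such members. Fabp6, the ileal bile acid binding protein gene and an FXR target, was at 16.6, 19.7, 4.43 and 21.1 CPM against 11.8, 91.1, 7.47 and 74.6 CPM, so that BSHhigh 2 and 4 were high and BSHhigh 1 and 3 lay inside the BSHlow range. The receptor gene Nr1h4 was at 145, 96.2, 76.2 and 114 CPM against 116, 146, 88.9 and 158 CPM (adjusted p = 0.896), and Vdr had a log2 fold change of 0.01 (adjusted p = 0.997). Gpbar1 had 5 and 11 counts summed over each group and was not tested. Slc10a2, the apical bile acid transporter gene, was at 655, 459, 218 and 445 CPM against 526, 687, 189 and 803 CPM, an overlap (adjusted p = 0.936).

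Metabolic programs showed small shifts. Nuclear genes of oxidative phosphorylation were above 0 in 47 of 54 members, but their median was 0.10 (0.03 without BSHlow 4 and 0.16 without BSHlow 2). Only 1 was higher at an unadjusted p under 0.05, against 3.83% of all genes tested. Without BSHlow 2, 13 were, where 589 of 14000 genes tested were higher at that p. Glycolysis and hypoxia genes were above 0 in 26 of 30 with a median of 0.14 (0.09 without BSHhigh 1). Among them Bnip3, a mitophagy receptor gene under hypoxia control, was at 11.8, 13.1, 15.4 and 8.44 CPM against 27.5, 19.2, 22.8 and 17.7 CPM (log2 fold change 0.84 ± 0.20, adjusted p = 0.581). The unfolded protein response list had a median of -0.02 and that of cholesterol synthesis and uptake one of 0.02. The fatty acid oxidation, ketogenesis and PPAR target list had a median of 0.11 and the fatty acid synthesis and LXR target list one of -0.04. With library size in place of TMM scaling the median of all genes shifted to -0.07, a shift as large as several of these medians.

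Some of the largest folds belonged to genes outside these programs, and they differed widely between libraries of 1 group. Reg4, a secreted lectin gene of deep crypt secretory cells, was at 163, 326, 415 and 175 CPM in BSHlow and 21.4, 67.2, 58.5 and 35.9 CPM in BSHhigh (log2 fold change -2.56 ± 0.40, adjusted p = 0.234). It passed the threshold in 5 of the 17 alternatives. Muc16, a membrane mucin gene, was at 1.83, 1.47, 5.94 and 0.70 CPM against 0.08, 0.18, 0.25 and 0.07 CPM (-3.99 ± 0.77, adjusted p = 0.34). Slc26a1, a sulfate transporter gene, was at 3.10, 5.19, 12.2 and 1.47 CPM against 0.38, 0.98, 0.25 and 0.40 CPM. Gal3st2c, a galactose sulfotransferase gene with close copies and counts that were not whole numbers in any library, was at 72.5, 108, 317 and 20.2 CPM against 9.73, 30.7, 9.27 and 11.4 CPM. For Muc16, Slc26a1 and Gal3st2c, BSHlow 3 was the highest library and BSHlow 4 the lowest of its group.

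In the other direction, Atp12a, the colonic proton-potassium pump gene, was at 0.76, 3.30, 4.04 and 4.51 CPM in BSHlow and 223, 31.9, 70.2 and 4.77 CPM in BSHhigh (log2 fold change 4.71 ± 1.01, adjusted p = 0.512). The BSHhigh libraries thus ranged from just above the highest BSHlow library to far above it. Hoxb13, a homeobox gene whose expression is known to be restricted to the hindgut's end, was high in BSHhigh 1 and 3, at 1.39, 1.26, 4.99 and 7.68 CPM against 50.6, 4.27, 47.8 and 1.72 CPM (adjusted p = 0.711). Hoxa13, of the same position class, was at 3.61, 4.49, 16.8 and 5.39 CPM against 22.5, 4.39, 30.6 and 3.78 CPM. Tgm3, a transglutaminase gene, and Ggh, a folate hydrolase gene, were also highest in BSHhigh 1 and 3. So were Atp12a and, by the values given above, Car4 and Ly6g, though BSHhigh 4 lay close to BSHhigh 3 for Ly6g. Ggh was the highest member of the absorptive colonocyte list, at 1.48 on the log2 scale. Fabp6 and Anpep, the brush border aminopeptidase gene, were instead highest in BSHhigh 2 and 4. The part of the stretch of colon sampled in these values was not tested. Across BSHhigh 1 to 4 the type I interferon score was 1.02, 1.87, 1.31 and 0.91 and the cell cycle score -0.48, -0.28, -0.08 and -0.52. St3gal4 was at 546, 456, 465 and 511 CPM in the same libraries. Whether these values follow the stretch of colon was not tested either.

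**Figure D4:**
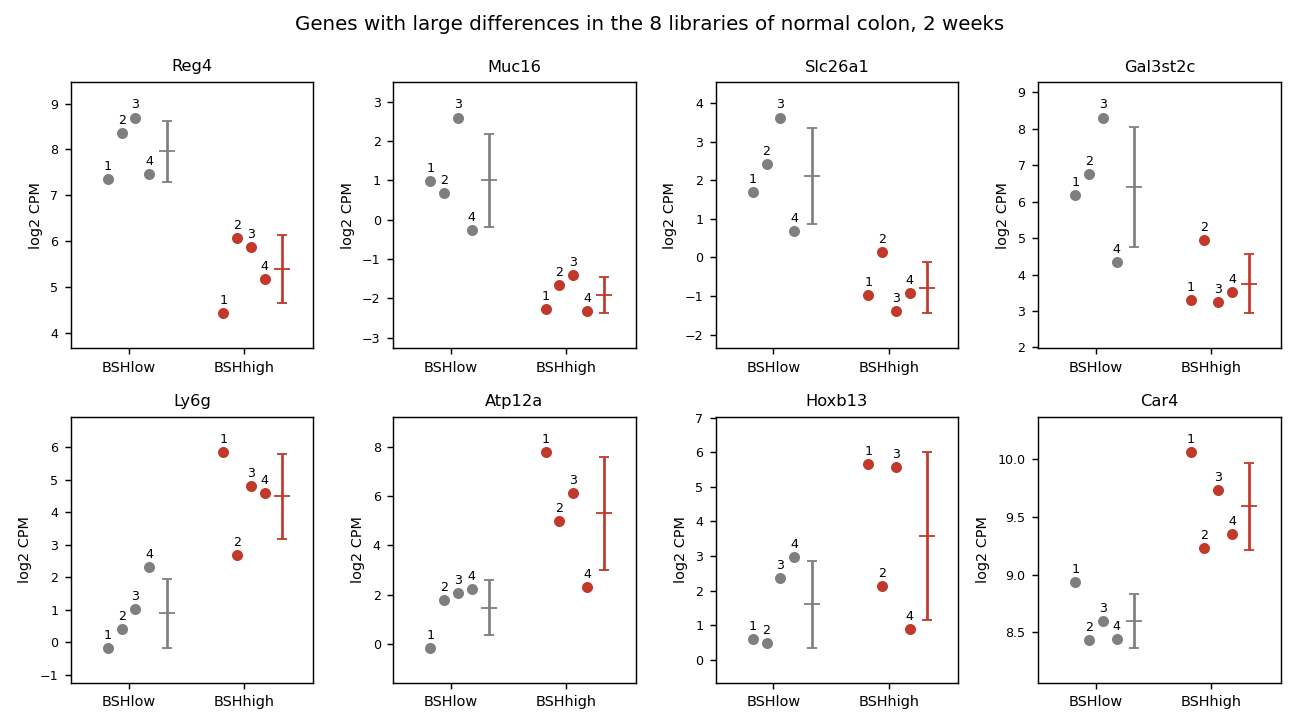
Level of 8 genes with large differences in each library, as log2 CPM, with BSHlow in grey and BSHhigh in red. Numbers are replicates and bars give mean and SD of 4 libraries. Reg4, Muc16, Slc26a1 and Gal3st2c spread widely among the BSHlow libraries, and Hoxb13 is high in BSHhigh 1 and 3 alone.

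Among markers of other tissues and cells, endothelial genes were below 0 in 17 of 18 members with a median of -0.63, but the median was -1.08 without BSHhigh 3, -0.37 without BSHhigh 4 and 0.06 without BSHlow 3, whose summed level was 136 CPM against 20.2 to 68.3 CPM in the other 7 libraries. Smooth muscle genes summed to 478 to 668 CPM in BSHlow and 447 to 750 CPM in BSHhigh. The list of pancreas, red blood cell and lymph node genes summed to 72.7 to 87.0 CPM against 58.4 to 222 CPM. Small intestinal enterocyte and Paneth cell genes summed to 1850 to 2980 CPM against 1590 to 3490 CPM, and 16 of 19 tested were above 0 (median 0.33). Squamous epithelium genes summed to 80.3 to 320 CPM, the latter in BSHlow 3, against 72.8 to 112 CPM.

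The 12-week non-tumor colon of the same design, 4 libraries a group that share no sample with those above, offers the same contrast later. There 0 of 14933 genes passed the adjusted threshold by edgeR (0%), while 5.3% were higher and 3.92% lower at an unadjusted p under 0.05. Type I interferon-stimulated genes were above 0 there in 36 of 36 members with a median of 0.45, and interferon gamma-inducible genes in 24 of 24 with a median of 0.64, where 47.2% of all genes were above 0. Of these, 21 type I and 10 interferon gamma-inducible members were higher at an unadjusted p under 0.05. The median of MHC class I genes was 0.24, of MHC class II genes 0.10, of T cell genes 0.08 and of B cell genes 0.24. Cell cycle genes lay on the other side of 0 at 12 weeks, above it in 36 of 40 members with a median of 0.23, but 0 of the 40 had an unadjusted p under 0.05 there by edgeR. St3gal4 had a log2 fold change of -0.14 at 12 weeks. The test of the difference between the 2 effects called 0 of 15532 genes (0%) by edgeR, with 1135 at an unadjusted p under 0.05 (7.31%) and 0.113 as the smallest adjusted p, while DESeq2 called 14 above 0 and 21 below. The lowest p was that of Reg4, whose effect at 2 weeks lay 3.13 below that at 12 weeks on the log2 scale (SE 0.52, adjusted p = 0.113). St3gal4 had a difference of 1.24 ± 0.35 (SE, adjusted p = 0.427). In the 16-library scaling Hoxb13 averaged 4.21 ± 3.42 and 28.5 ± 29.2 CPM (SD, n = 4 each) in BSHlow and BSHhigh at 2 weeks and 444 ± 59.1 and 379 ± 37.4 CPM at 12 weeks. Ly6g averaged 2.38 and 31.5 CPM at 2 weeks and 151 and 202 CPM at 12 weeks. For Atp12a the means were 3.46 and 89.8 CPM, then 754 and 553 CPM. Those of Car4 were 429 and 865 CPM, then 694 and 723 CPM. The time point and the stretch of colon taken cannot be told apart between these sets.

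**Figure D5:**
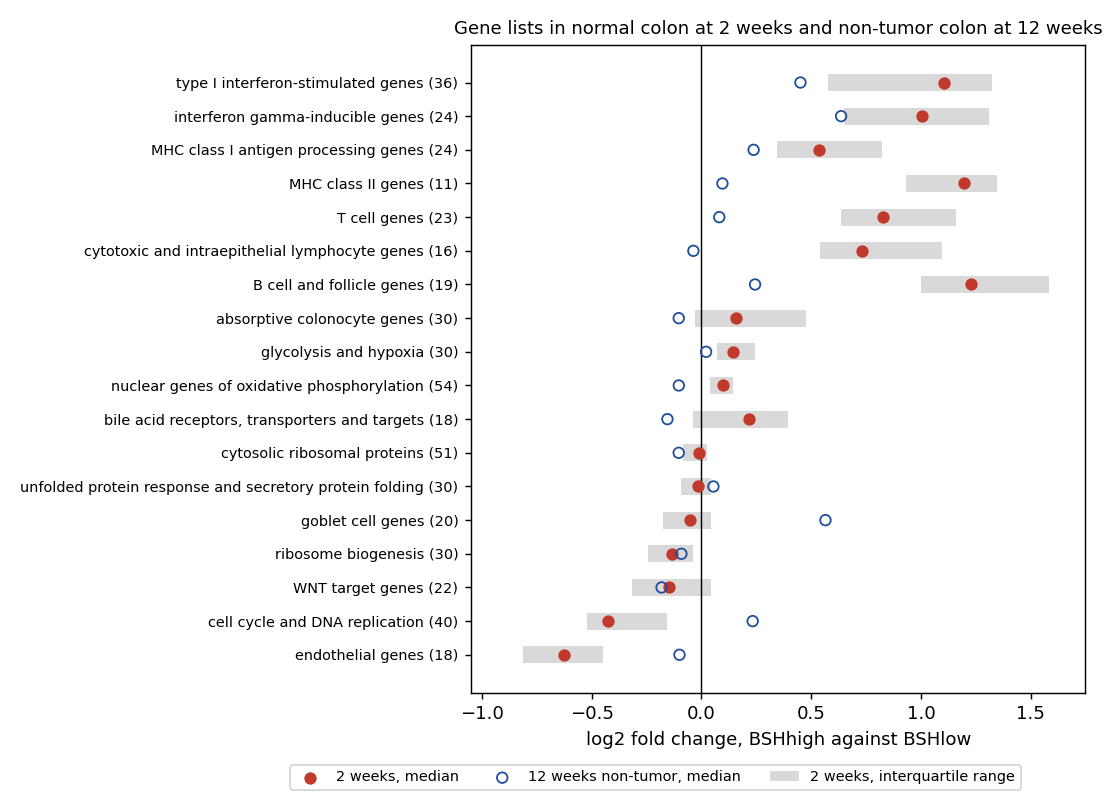
Median log2 fold change of BSHhigh against BSHlow for 18 gene lists, with filled red points for normal colon at 2 weeks, grey bars for the interquartile range of the members at 2 weeks, and open blue points for non-tumor colon at 12 weeks. The number of members tested at 2 weeks follows each name. Both interferon lists lie above 0 at both times, and the cell cycle median is -0.43 at 2 weeks and 0.23 at 12 weeks.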

How the data were processed

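RNA was measured by paired-end sequencing of colon tissue. The labels name a stranded total RNA library kit and the methods of the study a stranded mRNA kit. Per the labels and methods, adapters were removed with cutadapt and alignment to mm10 used STAR. The authors then estimated gene abundance with RSEM, and the deposited table holds its expected counts, unnormalized, with a column for each library. Picard is also named in the submitters' processing notes. RSEM divides reads between near-identical genes, so some counts are not whole (4.01% of values), and they were rounded here. All 13752 tested gene IDs were in GENCODE M21. 7 columns of tumor libraries were not used.

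Genes were filtered with filterByExpr, scaled by TMM and compared by edgeR's quasi-likelihood test (edgeR 4.0.16, R 4.3.3) in the 8 libraries, with Benjamini-Hochberg adjustment over all genes tested. The 12-week and interaction fits used 8 and 16 libraries. CPM values are TMM-scaled, and log2 CPM uses a prior count of 2. Fold changes are BSHhigh over BSHlow. Counting intervals cover counting error only. DESeq2 1.42.0 and limma-voom (limma 3.58.1), other scalings, other filters, omission of single libraries and a block for the replicate number were tried as alternatives. Scripts were tested on simulated data.

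Gene lists (54, and 4 added after values were seen) carry no test of their own. Members and lists were chosen with earlier results of these data known. Named genes were, at a mean of 1 CPM or more, up to 12 per direction past the threshold, filled to 12 by the smallest unadjusted p (predicted genes and immunoglobulin segments skipped), genes the study discusses with Apc, Cdx2 and Ctnnb1, up to 4 members per list by p, and up to 5 interaction genes per sign. Genes named outside that rule, such as Isg15, Oasl2, Usp18, Tgm3, Anpep, Hoxa13 and Vil1, were chosen after their values were seen. Replicates of 1 group differed from each other beyond sampling noise, so none was counted as a repeat. Some genes that the rule names are not reported here.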

Additional observations from a re-analysis of the deposited data

Results flagged for a closer look

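Of 108 groups of 4 libraries checked for 1 library far from the other 3 (38 genes and 16 gene lists), 2 passed Dixon's critical value. Many of these genes were chosen for a small p between groups, which favours little spread within a group. The number therefore cannot be set against the 1 in 20 that chance gives. The type I interferon-stimulated score of BSHlow 4 was 1.254 while the other BSHlow libraries lay between -0.544 and -0.262. Cwh43 was at 5.051 log2 CPM in BSHlow 1 and between 5.315 and 5.359 in the other BSHlow libraries.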

How the results depend on the processing

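The number of genes past the adjusted threshold was 1 higher and 0 lower, and with limma-voom, the other scalings and a filter of CPM over 1 it was the same. DESeq2 called 43 higher and 10 lower, of which 20 and 8 had a log2 fold change beyond 1. Without a filter on low counts the counts were 5 and 1 (4 and 1 beyond that fold change). The fit of all 16 libraries called 2 and 1 (1 and 1 beyond it), which were Ly6g, Ifi27 and Reg4 and not St3gal4. Leaving out each library in turn gave 0 to 40 higher and 0 to 3 lower (0 to 34 and 0 to 3 beyond it), with 40 and 3 without BSHlow 4, and St3gal4 kept its direction throughout. With the replicate number as a block, 0 genes were higher and 1, Reg4, was lower, at either fold change, and St3gal4 had an adjusted p of 0.157. The numbers showed no clear pairing of the samples. Deviations of same-numbered libraries correlated at 0.044, -0.17, 0.3 and -0.12, and of the BSHlow libraries only number 3 correlated best with its own number. So few correlations cannot exclude a pairing. For the difference between 2 and 12 weeks, with 0 calls, DESeq2 called 14 above and 21 below 0, the replicate block 1 below, and leaving out each library 0 to 4 below, with 4 without BSHhigh 3. The cause of these changes was not tested.

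The medians of 16 gene lists moved by less than the replicate SD in all 224 alternatives, but that SD is wide: leaving out 1 library turned the sign of the goblet cell median (-0.178 to 0.0236) and of the endothelial one (-1.08 to 0.0624). Fold changes near 0 changed sign: that of Vdr was -0.00276 with limma-voom, -0.00944 with upper-quartile scaling, -0.0772 with library size only and -0.00688 with the block. On leaving out each library Vdr ran from -0.0796 to 0.117, Ccl28 from -0.00428 to 0.203, Cd4 from -0.131 to 0.705, Ccr2 from -0.0757 to 0.35, Myc from -0.138 to 0.0111 and Ctnnb1 from -0.045 to 0.0323. With 4 libraries a group, genes under about 1 CPM rest on few counts.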
